A study of Mus musculus with 6 samples.

Results

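The transcripts examined were 39 interferon-stimulated genes, named as a list by symbol and looked up in a table of read counts for 35976 genes. All 39 symbols were found. Of these, 22 passed the filter on low counts and were tested for a difference between the groups, among 13761 genes tested in all, and 17 did not pass. The cells were murine chondrocytes, which build the matrix of cartilage, isolated from hind limb articular cartilage at embryonic day 18.5 on a C57BL/6 x 129S4/SvJae background. The cells of every group were grown on plastic for 16 population doublings with doxycycline at 2 µg/ml, which induced an H3.3 transgene. In the H3K9M group (3 libraries, replicates 1, 3 and 5) the transgene was H3.3 with methionine in place of lysine 9, and the labels give methylation of H3K9 as suppressed. In the H3WT group (3 libraries, replicates 1, 2 and 4) it was wild-type H3.3, so the controls carried induced H3.3 and doxycycline as well. The promoter and insertion site of the transgene, and whether each library came from its own embryo, are not given in the sources used here. If libraries of a group shared a culture, p-values measure only technical spread.

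Interferons are secreted proteins that cells release when sensors such as RIG-I, MDA5 or cGAS meet foreign or misplaced nucleic acid. They act through surface receptors and JAK kinases on transcription factors such as STAT2 and IRF9, which bind the interferon-stimulated response element (ISRE) and switch on antiviral genes, while interferon gamma acts mainly through the GAS element and induces guanylate-binding proteins and immunity-related GTPases. Methylation of H3K9 silences many endogenous retroviruses, and in other systems its loss is known to let their RNA or DNA reach these sensors. Many interferon-stimulated genes also have a low basal level in cells that meet no interferon. The comparison of H3K9M with H3WT addresses whether transcripts of these genes differed when H3K9 methylation was suppressed.

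No interferon-stimulated gene passed the test between the groups. Of the 22 members tested, 0 had an adjusted p under 0.05 by the quasi-likelihood test of edgeR with Benjamini-Hochberg adjustment over all genes, against 0 of 13761 genes tested (0%). At an unadjusted p under 0.05 in edgeR there were 1 of the 22 members and 1677 of the 13761 genes. DESeq2 called 0 members and 390 genes (2.83%), and limma-voom 0 of either. The smallest adjusted p of a member was 0.357, for Stat2. The members' transcripts were scarce: the 39 genes together took 179.6 CPM (the usual rate of counts by library total, here without further scaling) in H3K9M replicate 1 (95% Wilson interval 173 to 186), 242 in H3K9M replicate 3, 202 in H3K9M replicate 5, 189 in H3WT replicate 1, 301 in H3WT replicate 2 (294 to 309) and 225 in H3WT replicate 4. The libraries of the groups overlapped, with H3WT replicate 2 highest and H3K9M replicate 1 lowest. These intervals cover counting error within each library only, not variation between libraries. Reads without molecular identifiers are not independent molecules, so the intervals may be too narrow even for that.

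The promoters of many members carry the element through which interferon acts. RefSeq promoter windows on GRCm38.p6, from 250 bases before the start of transcription to 50 after it, were found for 29 of the 39 members. The ISRE core was searched as GAAA, any 2 bases, GAAA, on both strands and with overlaps allowed. It stood in 18 of the 29 (62.1%), against 3.99% of the 27025 genes of the promoter table. Among members that passed the filter it stood in 11 of 18, and among those that did not in 7 of 11, so it was found in members with and without many reads. The GAS core, TTC, any 3 bases, GAA, stood in 6 of the 29 (20.7%), against 9.55% of all genes of the table. The stretches below are the 4 tested members with the highest mean level among those that held an ISRE core, with the core in capitals and each written 5′ to 3′ on the gene's own strand. Ddx58 lay at chr4:40239814-40239853, minus strand, Stat2 at chr10:128270248-128270315, plus strand, Irgm1 at chr11:48871421-48871480, minus strand and Gbp2 at chr3:142620574-142620643, plus strand. In Ddx58 the core began 2 bases after the start of transcription, while in Stat2, Irgm1 and Gbp2 the first core began 222, 30 and 59 bases before it.
Ddx58: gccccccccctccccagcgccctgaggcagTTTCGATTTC
Stat2: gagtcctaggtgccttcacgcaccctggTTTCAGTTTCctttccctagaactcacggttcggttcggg
Irgm1: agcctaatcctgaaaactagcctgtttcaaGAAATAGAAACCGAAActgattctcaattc
Gbp2: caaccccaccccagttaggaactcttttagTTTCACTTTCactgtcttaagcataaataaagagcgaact

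Ifit3, Ifit3b and Isg15 were added after their values were seen, because Ifit3 and Ifit3b are near copies and Isg15 holds 3 cores. In Isg15 (chr4:156200845-156200926, minus strand) the cores overlapped and formed a continuous stretch, whereas Ifit3 (chr19:34583343-34583446, plus strand) and Ifit3b (chr19:34607739-34607842, plus strand) each held 2 separate cores. The Ifit3 and Ifit3b stretches were identical in 104 of 104 bases. A match describes the letters in these windows and not binding. Nothing in these libraries measured binding or methylation at these sites.
Ifit3: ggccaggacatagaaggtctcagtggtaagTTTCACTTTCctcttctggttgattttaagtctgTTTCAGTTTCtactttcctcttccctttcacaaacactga
Ifit3b: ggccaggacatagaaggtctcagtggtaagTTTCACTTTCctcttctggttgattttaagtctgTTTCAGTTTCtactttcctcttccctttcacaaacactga
Isg15: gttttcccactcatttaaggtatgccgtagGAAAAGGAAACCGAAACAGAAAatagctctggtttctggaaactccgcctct

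The members lie partly in groups of chromosomal neighbours. In the GENCODE M21 annotation on GRCm38, the assembly also called mm10 that the submitters' processing notes name, 21 of the 39 members fell into 8 runs in which neighbours were at most 1 megabase apart. Ifit2, Ifit3, Ifit3b and Ifit1 shared chr19:34550694-34650009, Oas2, Oas3, Oas1b and Oas1a shared chr5:120730333-120907521, and Gbp7, Gbp3 and Gbp2 shared chr3:142530342-142638008. Irgm1 and Ifi47 lay together on chromosome 11, as did Rsad2 and Cmpk2 on chromosome 12 and Mx1 and Mx2 on chromosome 16. For 15 members the annotated gene overlapped another gene on the same or the opposite strand. Reads in an overlap could be counted for either gene or for neither, and the annotation and strand setting of the counts are not given. Igtp and Irgm2, and Irf9 and Rnf31, overlap on the same strand.

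Per length of transcript, Ifi27 was the most abundant member. Its level was 45.6 ± 6.31 CPM per kilobase of the longest annotated transcript (CPM from here on is TMM-scaled, which corrects library totals for composition; SD over 6 libraries), and its lowest library (39.8) lay above the highest library of Ddx58, the next member (11.7). Ddx58 had 9.53 ± 1.31 CPM per kilobase, Bst2 8.14 ± 2.36, Ifi35 8.07 ± 2.74 and Ifit2 6.73 ± 1.56. From Ddx58 down, each member overlapped the next in order across the 6 libraries. Members farther apart could be separate, as the lowest library of Ddx58 (8.37) lay above the highest of Stat2 (6.48) and of Irf9 (6.54). At the low end Dhx58 had 0.38 ± 0.47 and Trim30a 0.24 ± 0.19 CPM per kilobase.

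**Figure D1:**
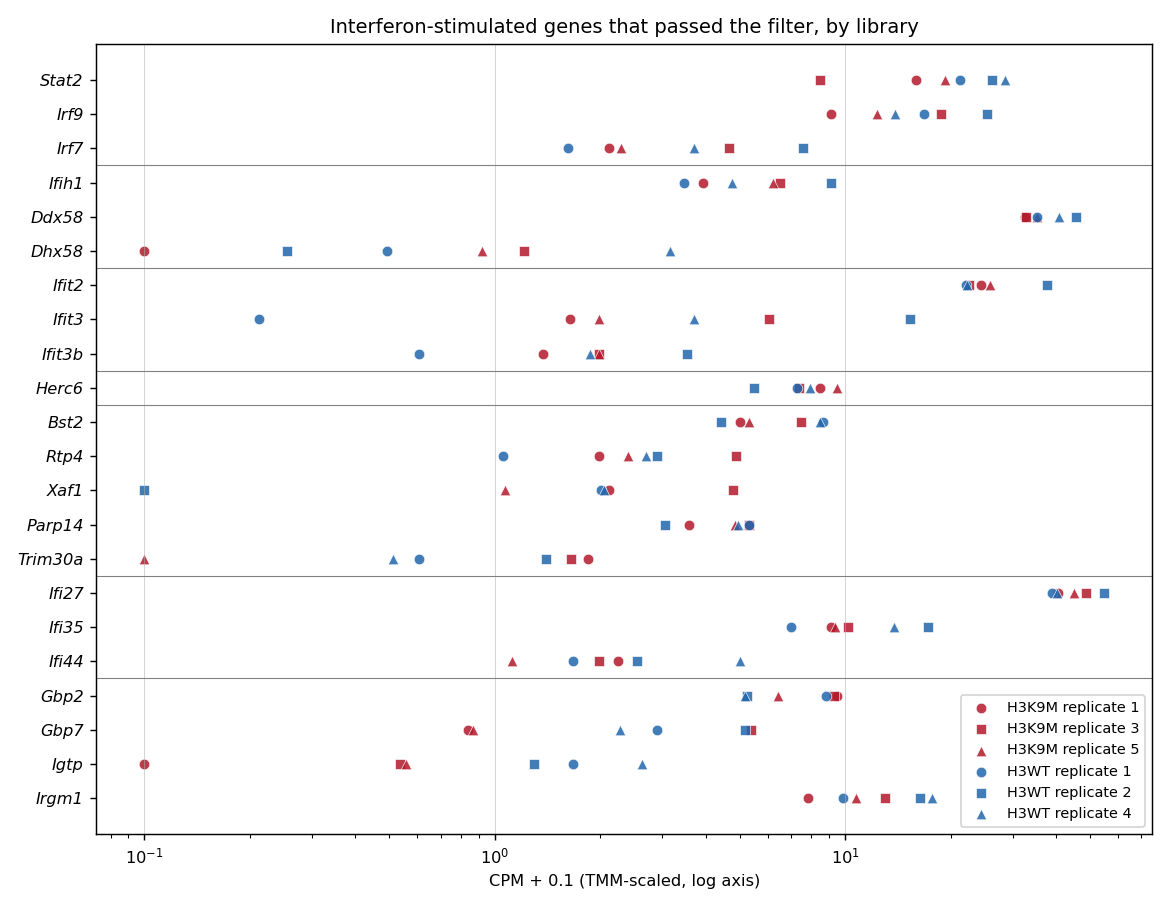
CPM plus 0.1 (TMM-scaled, log axis) of the 22 interferon-stimulated genes that passed the filter on low counts, 1 point per library, H3K9M in red and H3WT in blue, ordered by functional group. The points of the 2 colours overlap in every gene except Stat2 and Igtp, where the 3 H3K9M points lie below the 3 H3WT points.

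The signalling factors were measured first. STAT2 and IRF9 form the complex that binds the ISRE, and IRF7 amplifies interferon production. Stat2 had 15.8, 8.36 and 19.2 CPM in H3K9M and 21.1, 26.1 and 28.5 in H3WT, with libraries given throughout in the order 1, 3 and 5, then 1, 2 and 4. All 3 H3K9M libraries lay below the H3WT libraries, with H3K9M replicate 3 lowest. The log2 fold change was -0.81 ± 0.31 (SE), with an unadjusted p of 0.0300 and an adjusted p of 0.357 in edgeR, the only one of 22 members with an unadjusted p under 0.05. Leaving out 1 library took that p above 0.05 in 4 of 6 cases, up to 0.0894 without H3WT replicate 4, and the log2 fold change was -0.52 without H3K9M replicate 3. DESeq2 put Igtp under 0.05 as well (p 0.0177). Among all genes tested 5.77% were lower and 6.42% higher in H3K9M at that threshold, so 1 member lower and 0 higher is near the background. Irf9 had 8.98, 18.7 and 12.2 CPM in H3K9M and 16.6, 25.3 and 13.7 in H3WT (log2 fold change -0.48 ± 0.34 SE, edgeR adjusted p 0.605). The groups overlapped, and H3K9M replicate 3 stood above H3WT replicates 1 and 4. For Irf9 the log2 fold change was -0.80 without H3K9M replicate 3, where the groups no longer overlapped, and -0.18 without H3WT replicate 2. Irf7 had 2.01, 4.54 and 2.19 CPM in H3K9M and 1.52, 7.47 and 3.59 in H3WT (log2 fold change -0.52 ± 0.65 SE, edgeR adjusted p 0.800), and without H3WT replicate 2, its highest library, the log2 fold change was 0.21. Irf9 and Irf7 thus had the same top libraries, H3WT replicate 2 and H3K9M replicate 3, where Stat2 had its lowest value in H3K9M replicate 3. Irf7 overlaps Phrf1 on the opposite strand.

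Of the cytosolic sensors, Ddx58, which encodes RIG-I, was the most abundant and the least variable. It had 32.4, 32.7 and 35.3 CPM in H3K9M and 35.1, 45.3 and 40.6 in H3WT (log2 fold change -0.27 ± 0.15 SE, edgeR adjusted p 0.5). H3K9M replicate 5 and H3WT replicate 1 were the pair that made the groups overlap. With DESeq2's size factors in edgeR the groups of Ddx58 did not overlap. Ifih1, the gene of MDA5, had 3.82, 6.43 and 6.12 CPM in H3K9M and 3.37, 8.98 and 4.65 in H3WT. Its group means of 5.46 ± 1.43 and 5.67 ± 2.94 CPM (SD, n = 3 each) were closer than the spread between libraries. Dhx58, the gene of the RIG-I-like regulator LGP2, had 0, 1.11 and 0.82 CPM in H3K9M and 0.39, 0.16 and 3.06 in H3WT (52 counts in H3WT replicate 4), so 1 library decided the H3WT mean. Without H3WT replicate 4 its log2 fold change turned from -0.87 to 1.23. Ddx60 reached at most 8 counts, and Zbp1, a sensor of Z-form nucleic acid, had 16 counts in H3WT replicate 2 and 2 or fewer in the others.

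The IFIT genes encode proteins that bind viral RNA lacking self marks, and within H3WT their libraries lay farther apart than the means of the groups. Ifit3 had 1.54, 5.94 and 1.89 CPM in H3K9M and 0.11, 15.2 and 3.59 in H3WT. H3WT thus held both the lowest and the highest library, from 2 counts in replicate 1 to 292 in replicate 2. The log2 fold change was -1.003 ± 1.29 (SE, edgeR adjusted p 0.810), and the sign turned when H3WT replicate 2 was dropped (0.77) and under limma-voom (0.43). Ifit3b had 1.27, 1.88 and 1.89 CPM in H3K9M and 0.51, 3.42 and 1.77 in H3WT, again lowest and highest in H3WT replicates 1 and 2. The longest Ifit3 and Ifit3b transcripts are 97.8% identical over 1700 bases, so the division of reads between them is uncertain. Ifit2, which has no ISRE core in either of its RefSeq windows, was steadier, at 24.3, 22.5 and 25.8 CPM in H3K9M and 21.9, 37.5 and 22.2 in H3WT. Only H3WT replicate 2 stood apart. Ifit1 did not pass the filter, with 0, 35 and 4 counts in H3K9M and 0, 16 and 7 in H3WT, and its highest counts fell in H3K9M replicate 3 and H3WT replicate 2.

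The oligoadenylate synthetases, which make the second messenger that activates RNase L, were at or near 0 counts. None of the 6 passed the filter. Oas3 and Oasl1 had 0 counts in every library, and Oas1a had 1 count over the 6 libraries. Oas1b had 4 counts in H3WT replicate 1 and 5 in H3WT replicate 4, Oas2 had 5 in H3K9M replicate 3, and Oasl2 had 14 in H3K9M replicate 3 and 7 in H3WT replicate 4. A count of 0 allows a level of up to 0.199 CPM in H3K9M replicate 1, the shallowest library (3 of 15113675 reads), and up to 0.153 CPM in H3K9M replicate 5, the deepest. In the GENCODE annotation Oas1b is a polymorphic pseudogene, and the Oas1a transcript is 97.6% identical to that of Oas1g over 1861 bases.

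ISG15 is a ubiquitin-like protein that is joined to other proteins, in mice by the ligase HERC6, and removed by USP18, which also restrains the interferon receptor. Isg15 did not pass the filter. It had 0, 29 and 1 counts in H3K9M and 6, 24 and 0 in H3WT, with 29 and 24 in the same libraries as the highest Ifit1 counts. Usp18 reached at most 11 counts, in H3WT replicate 1. Herc6 passed the filter. It had 8.37, 7.30 and 9.34 CPM in H3K9M and 7.19, 5.40 and 7.83 in H3WT, with H3WT replicate 2 lowest. The log2 fold change was 0.29 ± 0.28 (SE, edgeR adjusted p 0.726) and the groups overlapped.

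Among the other antiviral effectors, Mx1, Mx2 and Rsad2 had 0 counts in all 6 libraries. Mx1 and Mx2 encode dynamin-like GTPases, and Rsad2 encodes viperin. The mouse reference strain is known to carry defective Mx alleles, and the annotation gives Mx2 as a polymorphic pseudogene. Cmpk2, next to Rsad2 on chromosome 12, had 9 counts in H3K9M replicate 5, 10 in H3WT replicate 1 and 0 in the others. Bst2, which encodes tetherin, had 4.89, 7.39 and 5.20 CPM in H3K9M and 8.53, 4.31 and 8.37 in H3WT. H3WT replicate 2, the top library for Ifit3, was the lowest for Bst2. Xaf1, an apoptosis-related gene, had 2.01, 4.69 and 0.97 CPM in H3K9M and 1.91, 0 and 1.94 in H3WT, so the same library lacked it. Parp14, an ADP-ribosyltransferase, had 3.48, 5.22 and 4.75 CPM in H3K9M and 5.22, 2.96 and 4.83 in H3WT, again lowest in H3WT replicate 2. Rtp4, the gene of a receptor transporter, was highest in H3K9M replicate 3 and lowest in H3WT replicate 1, at 1.88, 4.78 and 2.30 CPM in H3K9M and 0.95, 2.80 and 2.59 in H3WT. Trim30a had 1.74, 1.55 and 0 CPM in H3K9M and 0.51, 1.30 and 0.41 in H3WT, and its transcript is 90.1% identical to that of Trim30d over 1719 bases. None of these 5 tested effectors had an adjusted p under 0.8 (edgeR), and 4 of the 5 log2 fold changes were above 0 (Bst2 was -0.28).

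Ifi27, a small mitochondrial membrane protein gene and the most abundant member, had 40.3, 48.5 and 44.7 CPM in H3K9M and 38.9, 54.8 and 40.1 in H3WT. The means were 44.5 ± 4.07 and 44.6 ± 8.86 CPM (SD, n = 3 each), and the log2 fold change was -0.002 (SE 0.17). The 2 groups overlapped, with both the lowest and the highest library in H3WT. Ifi35, whose protein binds the interferon-induced protein NMI, had 8.98, 10.1 and 9.23 CPM in H3K9M and 6.91, 17.1 and 13.7 in H3WT (log2 fold change -0.41 ± 0.34 SE, edgeR adjusted p 0.662). The H3K9M libraries lay close together and inside the range of H3WT. Ifi44 had 2.14, 1.88 and 1.02 CPM in H3K9M and 1.57, 2.44 and 4.89 in H3WT, with H3WT replicate 4 highest (log2 fold change -0.82 ± 0.64 SE, edgeR adjusted p 0.644). Dropping H3WT replicate 4 gave -0.25 for Ifi44, and dropping H3WT replicate 2 gave -0.11 for Ifi35.

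The interferon-inducible GTPases, which act at the membranes around intracellular parasites and respond strongly to interferon gamma, held the largest fold change among the 22 members tested. Igtp, the gene of Irgm3, had 0, 9 and 9 counts in H3K9M and 28, 23 and 43 in H3WT. In CPM these were 0, 0.43 and 0.46 against 1.57, 1.19 and 2.53, so the groups did not overlap. The log2 fold change was -2.51 ± 1.11 (SE, edgeR adjusted p 0.415), and it did not pass the test. Igtp passed the filter on low counts only through its H3WT libraries, so its separation and the size of its fold change depend in part on that filter. Its reads are few and its annotated span overlaps Irgm2 on the same strand. Irgm2 itself had a log2 fold change of -0.30 (SE 0.68). Irgm1 had 7.70, 12.9 and 10.7 CPM in H3K9M and 9.77, 16.2 and 17.6 in H3WT (log2 fold change -0.48 ± 0.30 SE, edgeR adjusted p 0.562), with overlap between H3WT replicate 1 and H3K9M replicates 3 and 5. Gbp2 was instead highest in H3K9M replicate 1, at 9.38, 9.18 and 6.33 CPM in H3K9M and 8.70, 5.14 and 5.07 in H3WT (log2 fold change 0.40 ± 0.34 SE, edgeR adjusted p 0.682). Gbp7 had 0.74, 5.27 and 0.77 CPM in H3K9M and 2.81, 5.08 and 2.18 in H3WT, so H3K9M replicate 3 and H3WT replicate 2 stood together at the top. Gbp3 had 0, 4 and 0 counts in H3K9M and 13, 27 and 1 in H3WT, and Ifi47 at most 11 counts. The members of the Gbp run on chromosome 3 thus did not share one order of libraries.

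**Figure D2:**
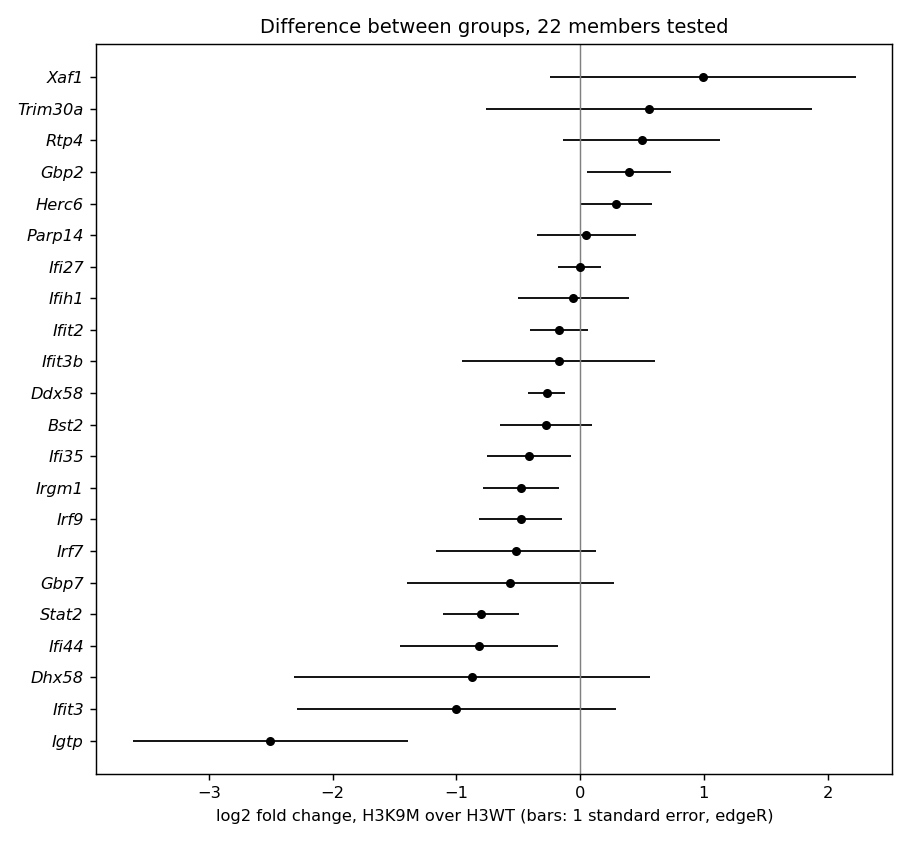
Log2 fold change of H3K9M over H3WT for the 22 members tested, in order, with bars of 1 standard error (edgeR). Igtp is lowest at -2.51 and Xaf1 highest at 0.99, and the widest bars belong to members with few reads.

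Counted over the members tested, 16 had a log2 fold change below 0 and 6 above it, with a median of -0.27, beside 50.4% of all genes tested below 0 and a median of -0.003. These counts describe only the members with enough reads. When every gene with at least 1 count was fitted, 34 members entered, of which 24 lay below 0 and 10 above, with a median of -0.27. In 2 members (Stat2 and Igtp) all H3K9M libraries lay below all H3WT libraries and in 0 members above, where 8.68% and 10.7% of all genes tested were separated in those directions. Igtp passed the filter only through its H3WT libraries, so its separation partly follows from the filter. The median moved when single libraries were left out. Without H3WT replicate 2, 11 members lay on each side of 0 and the median was 0.01. It was -0.45 without H3K9M replicate 3. Without both libraries, a choice made after the data were seen, 14 of 21 members lay below 0 and the median was -0.265. Of the 22 members, 11 kept the sign of the log2 fold change in every one of the 13 alternative fits that tested them and 11 did not.

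**Figure D3:**
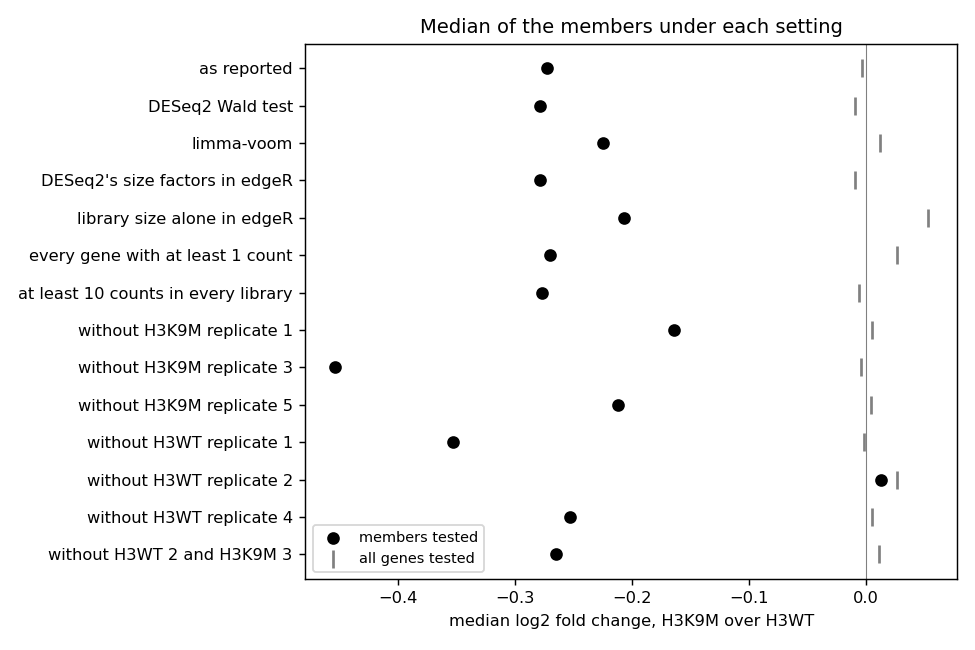
Median log2 fold change (H3K9M over H3WT) of the interferon-stimulated genes tested (black) and of all genes tested (grey) in the reported fit and 13 alternatives. The members' median runs from -0.45 without H3K9M replicate 3 to 0.01 without H3WT replicate 2.

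The members varied among libraries within both groups. H3WT replicate 2 was the highest library for 9 of the 22 members tested, where it was the highest for 19.5% of all genes tested. H3WT replicate 4 was the highest for 5 (17.7% of all genes) and H3WT replicate 1 for 2 (15.6%). H3K9M replicates 1, 3 and 5 were the highest for 2, 3 and 1 members (14.6%, 20.9% and 11.7% of all genes). For 7 members (Irf9, Irf7, Ifih1, Ifit3, Gbp7, Ifi27 and Rtp4) the 2 highest libraries were H3WT replicate 2 and H3K9M replicate 3, as for 9.46% of all genes tested. The next most frequent pair was H3WT replicates 2 and 4, with 5 members, beside 6.47% of all genes tested. Relative to each gene's mean over the 6 libraries, the median of the 22 members was 0.46 (log2) in H3WT replicate 2, 0.26 in H3K9M replicate 3 and 0.16 in H3WT replicate 4, and lower in the others: -0.28 in H3K9M replicate 1, -0.16 in H3K9M replicate 5 and -0.19 in H3WT replicate 1. The medians over all genes tested stayed between 0.002 and 0.02. By role, the IFIT genes ran from -1.45 in H3WT replicate 1 to 1.07 in H3WT replicate 2, while Bst2, Rtp4, Xaf1, Parp14 and Trim30a together had a median of 1.02 in H3K9M replicate 3 and -0.52 in H3WT replicate 2. H3WT replicate 2 was therefore not high for every role.

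**Figure D4:**
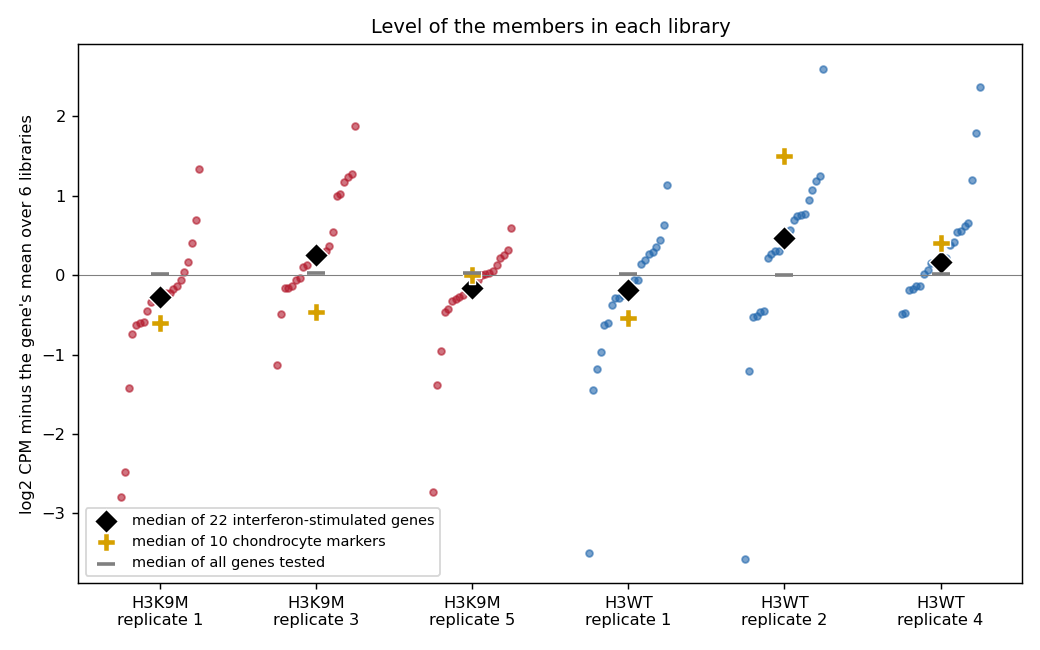
Log2 CPM minus each gene's mean over the 6 libraries, by library, with 1 point for each of the 22 members (H3K9M red, H3WT blue) and the medians of the members, of 10 chondrocyte markers and of all genes tested. The members' median is highest in H3WT replicate 2 (0.46) and lowest in H3K9M replicate 1 (-0.28), and the chondrocyte markers reach 1.503 in H3WT replicate 2.

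Markers of cell types also varied among these libraries. All 10 chondrocyte markers were tested and had log2 fold changes below 0 (median -0.82), beside 50.4% of all genes tested. At an unadjusted p under 0.05 (edgeR), 2 of the 10, Col9a1 and Col9a2, were lower, beside 5.77% of all genes tested. Of the 10, 9 were highest in H3WT replicate 2, including Col2a1 at 14110 CPM against 4913 to 9904 in the others. Their median relative level was 1.503 (log2) in H3WT replicate 2 and 0.40 in H3WT replicate 4 but -0.47 in H3K9M replicate 3, the 3 libraries in which the median of the interferon-stimulated genes was above 0. The 12 macrophage and blood markers summed to 11.5 to 22.6 CPM in H3K9M and 6.89 to 13.5 in H3WT, and 4 passed the filter. These 4 (Csf1r, Cd68, Lyz2 and Cd14) all had log2 fold changes above 0 (median 0.54), with groups that overlapped. Cd68 had 12.8 CPM in H3K9M replicate 3 and 0.62 to 4.7 in the other libraries (log2 fold change 1.75 ± 0.76 SE, edgeR adjusted p 0.411). Ptprc, Adgre1, Itgam, Tyrobp and Cd52 had 0 counts in every library. Of 8 endothelial markers 1 passed (summed level 2.36 to 3.57 CPM in H3K9M and 3.52 to 8.24 in H3WT), with Cdh5, Tie1 and Emcn at 0. Skeletal muscle markers summed to 27.3 to 237 CPM in H3K9M and 13.2 to 32.3 in H3WT. For 4 of the 5 that passed, such as Myod1, all H3K9M libraries lay above all H3WT libraries, beside 10.7% of all genes tested. Myod1 was highest in H3K9M replicate 3 (57.0 CPM). Myod1 and Myh3 each had 0 counts in 2 H3WT libraries and passed the filter through H3K9M, so their separation depends in part on that filter. The median log2 fold change of the 5 was 3.80. At an unadjusted p under 0.05 (edgeR), 4 of the 5 were higher in H3K9M, beside 6.42% of all genes tested. None of the 5 had an adjusted p under 0.05 (edgeR), nor did any of the 13761 genes tested. The part of chondrocyte, macrophage or muscle transcripts in the levels of the interferon-stimulated genes was not tested. In bulk RNA, fewer cells of a type and less RNA per cell cannot be told apart.

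Transcripts of the interferons themselves were at or near 0. Of 21 ligand genes 20 had 0 counts in every library, Ifnb1 and Ifng among them, and Ifnz had 6 counts in H3WT replicate 1. The chemokine gene Cxcl10, a strong interferon target, had 3 counts in H3K9M replicate 5 and 0 in the others. The receptors were expressed in both groups. Ifnar1 had 68.8, 76.4 and 69.6 CPM in H3K9M and 105, 76.4 and 96.3 in H3WT (log2 fold change -0.37 ± 0.15 SE, edgeR adjusted p 0.370), and Ifnar2 had 30.1 to 34.3 CPM in H3K9M and 35.8 to 44.4 in H3WT without overlap (log2 fold change -0.29, adjusted p 0.462). Ifngr1 had 32.8 ± 6.29 and 39.9 ± 2.26 CPM (SD, n = 3 each), and Ifngr2 had 64.2 ± 11.7 and 48.2 ± 2.95 CPM. The kinase genes Jak1 and Jak2 had log2 fold changes of -0.66 and -0.31 (adjusted p 0.357 and 0.408, edgeR). Irf1 and Irf3 had log2 fold changes of -0.17 (SE 0.28) and 0.21 (SE 0.16).

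The wider pathway was read from 5 lists: receptors and kinases, other transcription factors, nucleic acid sensing, feedback inhibitors and other interferon-induced genes. Counting each gene once, 74 of 106 were tested, 0 passed the adjusted threshold in edgeR, 56 had a log2 fold change below 0 and 18 above it, and the median was -0.25. DESeq2 called 2 of the 74, Trim24 (adjusted p 0.0385) and Lgals9 (adjusted p 0.0274), beside its 2.83% over all genes. The edgeR fit without both H3WT replicate 2 and H3K9M replicate 3, added after the data were seen, called 2 of 76, Jak1 (adjusted p 0.0258) and Nlrx1 (adjusted p 0.0475), beside 2.19% of all genes. At an unadjusted p under 0.05 there were 13 lower and 1 higher (Ifngr2) in the reported fit, where 5.77% of all genes were lower and 6.42% higher. The 13 became 7 with library size alone, 6 without H3K9M replicate 5 and 18 without both libraries. Over all genes, those at that threshold in either direction numbered 1677 of 13761 as reported and 1665 of 13761 with library size alone. They numbered 1498 of 14308 without H3K9M replicate 5 and 2542 of 13821 without both libraries. The list of other interferon-induced genes had 29 of 36 tested genes below 0 (median -0.33) and a summed level of 1022 to 1141 CPM in H3K9M and 1303 to 1373 in H3WT. Its 6 genes with an unadjusted p under 0.05 were all lower. Only 2 were lower at that threshold without H3K9M replicate 1, without H3K9M replicate 5 or with library size alone, and 9 without H3K9M replicate 3. Over all genes, in either direction, 1212 of 14288 passed it without H3K9M replicate 1 and 1382 of 14169 without H3K9M replicate 3. Lgals9, which encodes galectin-9, had 20.03, 8.94 and 10.6 CPM in H3K9M and 35.8, 21.6 and 38.5 in H3WT (log2 fold change -1.28 ± 0.36 SE, edgeR adjusted p 0.249). Samhd1, a nucleotide hydrolase that limits viral replication, had 140, 84.9 and 132 CPM against 193, 166 and 207 CPM (log2 fold change -0.66 ± 0.20 SE, edgeR adjusted p 0.269), with no overlap. Pml, Rnf213, Helz2 and Lgals3bp had log2 fold changes from -0.54 to -0.40. Without H3WT replicate 2, 27 of 39 genes of this list lay below 0, with a median of -0.16.

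Among genes of nucleic acid sensing outside the members, 12 of 14 tested had a log2 fold change below 0 and none passed the adjusted threshold, Tmem173 alone having an unadjusted p under 0.05. Tmem173, the gene of the DNA-sensing adaptor STING, had 18.4, 13.9 and 13.5 CPM in H3K9M and 28.0, 26.0 and 20.3 in H3WT (log2 fold change -0.70 ± 0.22 SE, edgeR adjusted p 0.280). The groups did not overlap. Among the feedback inhibitors, 8 of 9 tested genes were below 0, beside 50.4% of all genes. At an unadjusted p under 0.05, 3 were lower, beside 5.77% of all genes. Without H3K9M replicate 5, 2 were lower, beside 1498 of 14308 genes in either direction. With DESeq2, 4 were lower, beside 1866 of 13761 genes in either direction. The other alternatives gave 3 or 4. In the alternatives, genes at that threshold were not counted by direction, so these totals are not a background for 1 direction. Pias1, an inhibitor of JAK-STAT signalling, had means of 45.8 ± 6.01 in H3K9M libraries and 66.6 ± 1.05 CPM in controls (SD, n = 3 each), with a log2 fold change of -0.54 (edgeR adjusted p 0.227). Trim24 had 30.2 ± 0.91 and 44.6 ± 3.46 CPM (log2 fold change -0.56, edgeR adjusted p 0.222), and Nlrx1, which dampens signalling from MAVS, had 16.1 ± 4.82 and 27.1 ± 2.74 CPM (log2 fold change -0.75, adjusted p 0.290). Mavs itself, the adaptor of RIG-I and MDA5, had a log2 fold change of 0.05 (SE 0.17). Socs1 and Socs3, the classical inhibitors of JAK kinases, had -0.02 (SE 0.28) and -0.48 (SE 0.23).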

How the data were processed

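Polyadenylated RNA libraries (6) were analysed. The deposited table gives counts of reads for each gene symbol and library, taken as raw from whole numbers with unequal totals (15113675 to 19606082 per library). The submitters' processing notes name HISAT2, featureCounts, DESeq2 and mm10 without versions or roles; annotation and strand setting are not given in the sources used here. Columns were matched to samples by title. Each row had a gene symbol.

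Counts were fitted in R 4.3.3 with edgeR 4.0.16 across all genes: filterByExpr, TMM scaling, robust quasi-likelihood test, Benjamini-Hochberg adjustment, threshold 0.05. CPM is TMM-scaled. Relative levels use log2 CPM with a prior count of 2. A count of 0 was read against a floor of 3 counts. With 3 libraries against 3 an exact two-sided permutation test cannot go below 0.1, so none was run. Alternatives used DESeq2 1.42.0, limma-voom 3.58.1, other scalings and filters, and each library left out. Positions and lengths came from GENCODE M21, promoters from RefSeq GRCm38.p6 and transcript similarity from blastn 2.17.0 (at least 90% over 200 bases, sense strand).

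Members and lists were chosen with earlier results of these data known. Values are given for every member, in full for the 8 smallest p-values and for Stat2, Irf9 and Irf7. Outside the members, genes with an unadjusted p under 0.05 and a few ligands, receptors and factors are named. Mavs, Irgm2, Socs1, Socs3 and Ifnz were named after their values were seen. One gene of the rule for named genes is not reported here.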

Additional observations from a re-analysis of the deposited data

How the results depend on the processing

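No interferon-stimulated member passed the adjusted threshold in any of the 13 alternatives, and the smallest adjusted p of a member ran from 0.221 to 0.589 across them. The count of changed genes over the whole table was 0 in the reported fit, 390 with DESeq2, 36 when each gene with a count was fitted, and 0 to 91 on leaving 1 library out (91 without H3WT replicate 2 and 2 without H3K9M replicate 3). Leaving out H3WT replicate 2 and H3K9M replicate 3 together, which was chosen after seeing the data, gave 302. The cause was not tested. The members' median was -0.27 in the reported fit and ran from -0.45 without H3K9M replicate 3 to 0.01 without H3WT replicate 2, where it turned. Without both libraries it was -0.265. The within-group SD of the members' median level was 0.306 on the log2 scale. Members lower in H3K9M without overlap numbered 2 in the reported fit. They numbered 3 with DESeq2's size factors in edgeR, where Ddx58 was added. With at least 10 counts in every library there was 1 (Igtp was then not tested). When a library was left out there were 2 to 6 (6 without H3WT replicate 1, 5 without H3K9M replicate 3), and 6 without both libraries. Members higher without overlap numbered 0, 1 with library size alone, 0 to 3 when a library was left out (3 without H3K9M replicate 5) and 3 without both. Fewer libraries separate more easily. The share of all genes separated was counted only in the reported fit (8.68% lower, 10.7% higher), so the counts in the alternatives have no background to be read against. With library size alone, 5 members were highest in H3K9M replicate 3 and 1 each in H3K9M replicate 1 and H3WT replicate 1. The log2 fold change of Irf7 lay between -0.98 and 0.21 on leaving a library out, and turned without H3WT replicate 2. No paired analysis was possible because the groups share only the replicate number 1. Depth limits the 17 members that did not pass the filter, none of which exceeded 1.69 CPM in a library.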
